A study of Homo sapiens with 8 samples.

Results

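The IL6 and LIF cytokine axis was followed in cells labelled Caco-2, an established human colorectal adenocarcinoma line, with and without forced expression of SIGLEC12. Its 10 members are the ligands IL6, IL11, LIF and CLCF1, the receptor chains IL6R, IL6ST, LIFR and OSMR, and, downstream of them, STAT3 and SOCS3. They were found by gene symbol among the 63816 gene entries of the deposited expression table, and each symbol stood on a single entry. The list was chosen by a reader of earlier results that held the levels of these samples and the difference between the groups, so the comparison of the groups below describes the members and is no independent support for any of them.

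Expression was measured by RNA-seq in 8 samples. In 4 of them the cells carried the plasmid pcDNA3.1 with no insert (empty vector), and in 4 they carried the same plasmid with full-length SIGLEC12, the gene for Siglec-XII, a receptor that has lost its ability to bind sialic acid in humans. Both groups were stable transfectants selected in culture with G418, per the study's methods, so each group may stand for a single transfection and selection. The labels name no added cytokine or other agent. The series text speaks of fewer cultures per group than the 4 samples listed, and the methods mention technical replicate libraries, so the spread between the samples of a group may be technical and p-values measure only that spread.

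Values are in TPM (the share of transcripts scaled to a fixed total, a level already divided by transcript length) or on the deposited scale, log2(TPM + 1). The table gives no read counts, so the depth behind a value is unknown. SIGLEC12 itself was between 0.0399 and 0.122 TPM in the empty vector samples and between 1582 and 1734 TPM in the SIGLEC12 samples, which fits the labels. Of 20 markers of colon epithelium, CDX1 (128 to 165 TPM) and CDX2 (34.0 to 48.8 TPM) were the ones that reached 1 TPM in all samples, while 15 stayed under 1 TPM in every sample, and KRT20, FABP1, SI and TFF3 were listed at 0. The general epithelial genes were high, with KRT8 at 3630 to 4772 TPM and EPCAM at 527 to 585 TPM. Of 22 genes typical of trophoblast, 12 reached 1 TPM in all samples, among them GATA3 at 331 to 479 TPM and HSD3B1 at 316 to 370 TPM, while CGB3, CGB5, CGB8 and INSL4 stayed under 1 TPM. The general epithelial genes do not mark colon, and apart from the CDX genes the colon markers were low or absent while trophoblast genes were expressed, so the markers largely went against the labelled origin, and the identity of the line was not settled here.

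Cytokines of the IL6 family act through receptors that share the signal-transducing chain gp130, the product of IL6ST. IL6 and IL11 first bind a chain of their own and then bring gp130 chains together, whereas LIF joins gp130 with LIFR, and oncostatin M joins it with OSMR or LIFR. Janus kinases bound to these chains phosphorylate STAT3, which enters the nucleus and switches on genes that include SOCS3, an inhibitor that binds gp130 and dampens the signal. In the intestinal epithelium this axis is known for its part in wound repair and in colitis-associated tumors.

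The IL6 promoter is shown because IL6 was the member with the highest level and the widest separation of the groups relative to its error. The 250 bases before the RefSeq start site lie on the plus strand at chr7:22726950-22727199 of GRCh38.p14, with 2 motif matches in capitals. The first in capitals matches the C/EBP motif TTGCNNAA at positions -155 to -148 from the start site, and the second matches the kappaB motif, bound by NF-kB, at -73 to -64.
IL6: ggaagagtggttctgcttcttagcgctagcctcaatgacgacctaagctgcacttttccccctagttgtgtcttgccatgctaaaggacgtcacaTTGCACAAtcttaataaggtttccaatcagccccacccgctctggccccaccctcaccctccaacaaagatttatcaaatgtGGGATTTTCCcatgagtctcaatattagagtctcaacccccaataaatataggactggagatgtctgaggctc
Searched on both strands, a kappaB match stood in 9.96% and a C/EBP match in 9.05% of the 35116 promoter windows of the same length, so neither is rare. Among the 8 members with a window in the RefSeq table, which holds neither LIF nor CLCF1, IL6ST also had a kappaB match at -53 to -44. LIFR and OSMR had C/EBP matches, and IL11 had a match to the AP-1 motif TGANTCA (6.57% of all windows) at -96 to -90. The GAS motif TTCNNNGAA, a form that STAT proteins bind (6.57% of all windows), was matched in 2 of the 3 LIFR windows, and the stricter palindrome TTCCNGGAA (0.968%) in none of the members. A match is a run of letters and not a measured binding site.

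Of the ligands, IL6 was the one expressed at a high level. IL6 (ENSG00000136244, GRCh37 chromosome 7, 22765503 to 22771621) encodes interleukin-6, the inducer of the hepatic acute phase response. With the empty vector its level was 138, 162, 142 and 137 TPM in replicates 1 to 4, and with SIGLEC12 it was 195, 158, 175 and 171 TPM. The lowest SIGLEC12 sample, replicate 2, lay just under the highest empty vector sample, also replicate 2, and the other 3 SIGLEC12 samples were above every empty vector sample. The means were 145 ± 11.5 TPM and 175 ± 15.2 TPM (SD, n = 4 each), a difference of 0.27 ± 0.07 on the log2(TPM + 1) scale (SE), or 1.21-fold, with a 95% interval of 0.10 to 0.44. The unadjusted p in limma's fit across all tested entries was 0.00501 and the adjusted p was 0.138, so IL6 did not pass the threshold of 0.05.

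IL6 made up between 95.9% and 97.1% of the summed TPM of 10 IL6-family ligands in every sample. Its rank among all entries by TPM ran from 825 to 1168. The other ligands of the axis were listed at 0.274 to 1.82 TPM. IL11 (GRCh37 chromosome 19, 55875750 to 55881831), known for its action on stroma and in gastrointestinal tumors, was at 0.599, 0.493, 0.954 and 0.874 TPM with the empty vector and at 0.896, 0.703, 0.665 and 0.897 TPM with SIGLEC12. LIF (chromosome 22, 30636442 to 30642748), the cytokine that keeps mouse embryonic stem cells undifferentiated, was at 0.274, 0.523, 1.24 and 0.365 TPM with the empty vector and at 0.623, 0.350, 0.511 and 0.692 TPM with SIGLEC12. In both genes the range of the SIGLEC12 samples fell inside that of the empty vector samples.

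CLCF1 (chromosome 11, 67131639 to 67141648), a ligand that signals through the CNTF receptor, was at 0.622, 1.33, 0.942 and 0.421 TPM with the empty vector and at 1.82, 1.12, 0.842 and 0.849 TPM with SIGLEC12. The groups overlapped, and replicate 1 of the SIGLEC12 group was the one sample above all empty vector samples. These 3 ligands did not reach 1 TPM in 4 samples and were left out of the main comparison. Fitted without that filter, the log2(TPM + 1) differences were 0.06 for IL11 (95% interval -0.27 to 0.38), -0.02 for LIF (-0.47 to 0.42) and 0.24 for CLCF1 (-0.27 to 0.75), with limma adjusted p of 0.907, 0.990 and 0.735. The intervals hold 0 and, for all 3 genes, also differences as large on this scale as that of IL6. At these low levels the added 1 shrinks the differences, so their sizes are not directly comparable with that of IL6. The ratio of mean TPM was 1.08 for IL11, 0.907 for LIF and 1.40 for CLCF1, beside 1.21 for IL6.

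**Figure D1:**
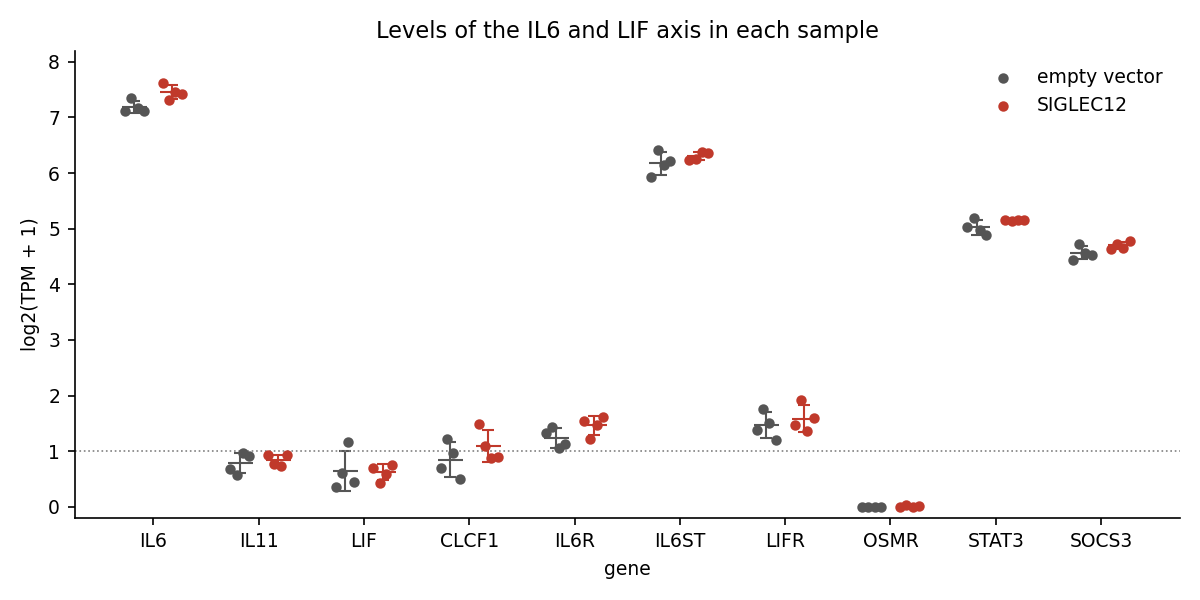
Level of each member of the axis in each sample, as log2(TPM + 1) on the vertical axis, with the 4 empty vector samples in grey and the 4 SIGLEC12 samples in red in the order of their replicate numbers. Bars give the group mean and SD, and the dotted line marks 1 TPM. IL6, IL6ST, STAT3 and SOCS3 lie far above the line, LIFR and IL6R just above it, and OSMR at 0 in 6 of the 8 samples.

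Among the receptor chains the shared one was abundant and the ligand-specific ones were scarce. IL6ST (ENSG00000134352, chromosome 5, 55230923 to 55290850) was at 59.8, 84.0, 69.7 and 73.7 TPM with the empty vector and at 73.9, 75.1, 82.0 and 81.0 TPM with SIGLEC12. Every SIGLEC12 sample was above the empty vector mean, yet all of them fell below empty vector replicate 2. The difference was 0.13 ± 0.09 (SE, log2 scale), with a limma adjusted p of 0.528.

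IL6R (ENSG00000160712, chromosome 1, 154377669 to 154441926) encodes the chain that binds IL6 before gp130 joins. It was at 1.52, 1.71, 1.09 and 1.18 TPM with the empty vector and at 1.90, 1.34, 1.78 and 2.07 TPM with SIGLEC12. As for IL6, 3 SIGLEC12 samples were above all empty vector samples and replicate 2 fell among them. Its difference on the log2(TPM + 1) scale was 0.23 ± 0.15 (SE), with a larger error than that of IL6, and the limma adjusted p was 0.468. At this low level the added 1 shrinks the difference, so its size is not directly comparable with that of IL6. The ratio of mean TPM was 1.29 for IL6R and 1.21 for IL6. With 0.1 added in place of 1, the log2 differences were 0.35 and 0.27 (limma adjusted p of 0.485 and 0.141).

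LIFR (ENSG00000113594, chromosome 5, 38474770 to 38608456), the chain that pairs with gp130 for LIF, was at 1.62, 2.38, 1.84 and 1.30 TPM with the empty vector and at 1.76, 2.76, 1.56 and 2.04 TPM with SIGLEC12. Here replicate 2 was the highest sample in each group. The difference was 0.12 ± 0.17 (SE, log2 scale; limma adjusted p = 0.764). As for IL6R, the added 1 shrinks a difference at this level, and the ratio of mean TPM was 1.14. OSMR (chromosome 5, 38845960 to 38945698), the oncostatin M receptor chain, was listed at 0 in 6 samples and at 0.0191 and 0.0106 TPM in SIGLEC12 replicates 2 and 4. Without read counts an exact 0 here says only that the entry is listed at 0, and no fold was given for it.

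Downstream of the receptors, STAT3 (ENSG00000168610, chromosome 17, 40465342 to 40540558) was at 31.8, 35.8, 30.4 and 28.5 TPM with the empty vector and at 34.5, 34.0, 34.8 and 34.5 TPM with SIGLEC12. The SIGLEC12 samples lay close together (SD 0.301 TPM, against 3.08 TPM with the empty vector), and empty vector replicate 2 was above all of them. SOCS3 (ENSG00000184557, chromosome 17, 76352859 to 76356158) was at 20.7, 25.4, 22.7 and 22.2 TPM with the empty vector and at 23.8, 25.5, 24.1 and 26.5 TPM with SIGLEC12. For SOCS3, 2 of the 4 SIGLEC12 samples were above every empty vector sample. The differences were 0.12 ± 0.07 for STAT3 and 0.13 ± 0.07 for SOCS3 (SE, log2 scale), with limma adjusted p of 0.396 and 0.389. These are transcript levels and say nothing of STAT3 phosphorylation.

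Ordered by mean TPM over the 8 samples, IL6 (160 TPM) was followed by IL6ST (74.9 TPM), STAT3 (33.0 TPM), SOCS3 (23.9 TPM), LIFR (1.91 TPM), IL6R (1.57 TPM), CLCF1 (0.994 TPM), IL11 (0.760 TPM), LIF (0.572 TPM) and OSMR (0.00372 TPM). From IL6 down to LIFR, no neighbours in this order had overlapping ranges. The ranges of LIFR and IL6R, of IL6R and CLCF1, of CLCF1 and IL11 and of IL11 and LIF overlapped, so the order among these low members is not settled by their ranges. Within samples, IL6R was above CLCF1 in all 8 and LIF was above OSMR in all 8, whereas LIFR was above IL6R in 5, CLCF1 above IL11 in 5 and IL11 above LIF in 6.

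Across the axis, 6 of the 10 members reached 1 TPM in at least 4 samples and entered the comparison with 15590 entries in all. None of these 6 passed an adjusted p of 0.05 in limma, a limit that 0.648% of all tested entries passed, and 1, IL6, had an unadjusted p under 0.05 with a higher level, as did 13.9% of all entries (2.61% were lower at that limit). All 6 had a higher mean with SIGLEC12, a direction shared by 68.1% of all tested entries. Their median log2 difference was 0.13, beside 0.07 for all tested entries. None of the 6 had groups that did not overlap, while 9.17% of all entries had every SIGLEC12 sample above every empty vector sample (4.64% after quantile normalization, 4.7% with equal upper quartiles and 3.32% with the trend on transcript length removed). Under these same 3 scalings the difference was 0.21, 0.21 and 0.22 for IL6, 0.06, 0.07 and 0.02 for IL6ST, 0.05, 0.06 and 0.03 for STAT3 and 0.06, 0.07 and 0.06 for SOCS3. All 4 stayed above 0, and those of IL6ST, STAT3 and SOCS3 were smaller by more than 1.5 times.

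**Figure D2:**
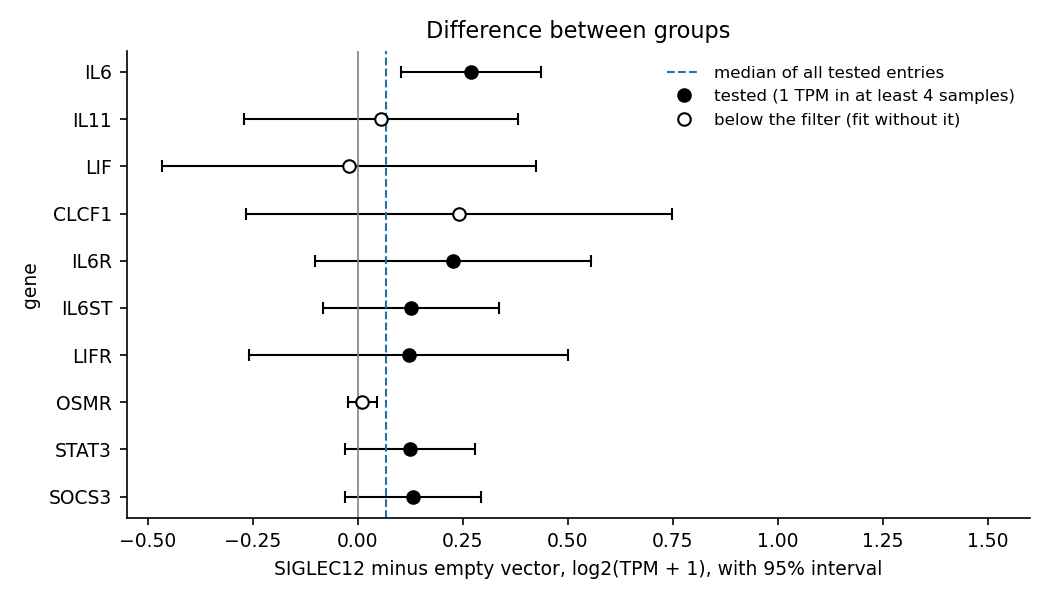
Difference between the groups for each member (SIGLEC12 minus empty vector, log2(TPM + 1), horizontal axis) with its 95% interval. Filled points are the 6 tested members, open points the 4 below the filter, and the dashed line is the median of all tested entries, 0.07. The interval of IL6, 0.10 to 0.44, is the one that lies wholly above 0.

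The overlap of the groups in these genes turned on the libraries numbered 2. Empty vector replicate 2 was the highest of the 4 empty vector samples for all 6 tested members, and for 34.9% of all tested entries. Without that library, the groups of IL6, IL6ST, STAT3 and SOCS3 no longer overlapped (4 of 6, beside 16.9% of all entries), and the adjusted p of IL6 in limma was 0.0698. Leaving it out lowered the empty vector maximum in all 6 members but in only 34.9% of all entries. The share over all entries is therefore not a like background, here or with both libraries left out, and no enrichment can be read from these counts. Without SIGLEC12 replicate 2, the groups of IL6 and IL6R did not overlap (2 of 6, beside 13.0%), and the difference in LIFR was 0.01 in place of 0.12. With both libraries left out, an alternative added after the data were seen, 5 of 6 did not overlap, all but LIFR, beside 21.2% of all entries. No member passed an adjusted p of 0.05 in any of these fits, and why empty vector replicate 2 stood high in these genes was not tested.

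**Figure D3:**
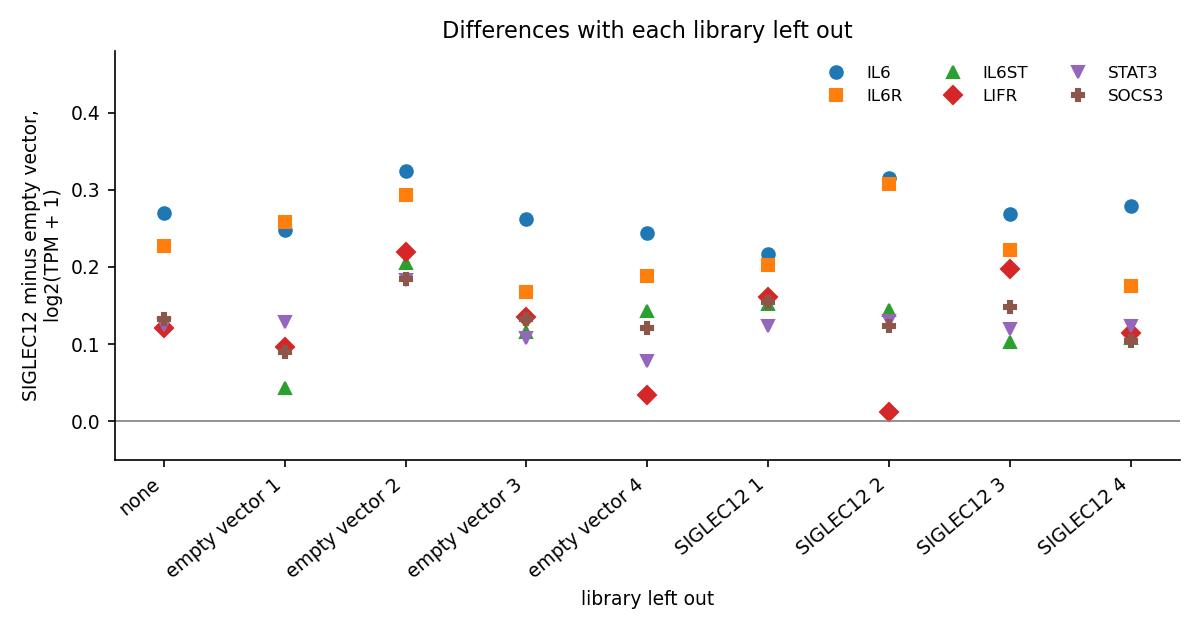
Difference between the groups (log2(TPM + 1), vertical axis) for the 6 tested members with no library left out and with each library left out in turn (horizontal axis). IL6 stays between 0.22 and 0.32, whereas LIFR moves between 0.01 and 0.22 and IL6ST between 0.04 and 0.21.

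Ratios of 2 members within a sample do not depend on how samples are scaled to each other. IL6 stood at 82.6 to 131 times the level of IL6R, and IL6ST at 38.9 to 64.2 times the level of IL6R. The log2 ratio of IL6 to IL6R was 6.74 ± 0.25 with the empty vector and 6.64 ± 0.21 with SIGLEC12 (SD, n = 4 each; two-sided exact permutation test, p = 0.543), and that of IL6R to IL6ST was -5.72 ± 0.33 and -5.48 ± 0.25 (exact permutation p = 0.257). The log2 ratio of SOCS3 to STAT3 was -0.47 ± 0.11 and -0.47 ± 0.08 (exact permutation p = 0.914), with overlapping samples. That of LIF to LIFR was -1.79 ± 0.87 and -1.91 ± 0.71 (exact permutation p = 0.857), and its direction turned when empty vector replicate 3 (0.28) or SIGLEC12 replicate 2 (0.23) was left out. Adjusted over the 4 ratios, every p was 0.914, and 0.0286 is the smallest p that 4 against 4 samples allow.

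The genes around the axis were read from 8 lists with 124 genes, of which 87 were tested. None passed an adjusted p of 0.05 in limma, with 0.0797 as the lowest, and at an unadjusted p under 0.05, 19 were higher with SIGLEC12 and none lower (13.9% and 2.61% of all entries). The groups did not overlap in 9 of the 87, all higher with SIGLEC12, beside 9.17% of all entries. Among the remaining ligands and soluble partners, 3 of 7 were tested, and CNTF and CTF1 were between 0.947 and 2.16 TPM, while OSM, IL27, EBI3 and IL31 stayed under 1 TPM. Of the 4 other receptor chains, IL27RA and IL11RA, the chain that binds IL11, were tested, with differences of 0.01 and -0.01.

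Genes linked to the shedding or sorting of IL6R were expressed throughout. All 5 genes of that list were tested, and 2 had an unadjusted p under 0.05 and no overlap between groups, both higher with SIGLEC12. Over all entries, 13.9% were higher at that limit and 9.17% were higher with no overlap, and a list this short allows no reading beyond these genes. SORL1, a sorting receptor known to bind IL6 and IL6R, was at 6.68 ± 0.895 TPM with the empty vector and 9.15 ± 0.694 TPM with SIGLEC12 (SD, n = 4 each; limma adjusted p = 0.109). ADAM10, a sheddase, was at 108 ± 3.16 and 117 ± 3.21 TPM (adjusted p = 0.222). ADAM17, the other sheddase of IL6R, differed by 0.10 on the log2 scale (adjusted p = 0.373).

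Of 19 kinases, STAT proteins and adaptors, 15 were tested and 3 had an unadjusted p under 0.05, all higher with SIGLEC12 (13.9% of all entries). Among them, the kinase YES1 was at 87.1 ± 2.09 TPM with the empty vector and 94.1 ± 4.66 TPM with SIGLEC12 (0.11, limma adjusted p = 0.292), and the adaptor GAB2 at 159 ± 10.3 and 172 ± 4.69 TPM (0.12, adjusted p = 0.299). The median of this list was 0.12, beside 0.07 for all entries. Of 16 negative regulators 15 were tested, 7 with a higher and 8 with a lower mean (68.1% of all entries were higher), and the median was -0.00014. SOCS7 (0.24, adjusted p = 0.193) and SOCS1 (0.24, adjusted p = 0.285), relatives of SOCS3, were the 2 with an unadjusted p under 0.05. Both were higher with SIGLEC12, as were 13.9% of all entries at that limit.

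Of 29 genes known as targets of STAT3, 27 were tested and 20 had a higher mean with SIGLEC12 (68.1% of all entries did), with a median of 0.10. The transcription factors KLF4 and FOSL2 had the largest differences among the 4 with the lowest p. KLF4 was at 10.8 ± 1.53 TPM with the empty vector and 15.9 ± 1.65 TPM with SIGLEC12 (0.52, limma adjusted p = 0.0797), and FOSL2 at 24.1 ± 4.75 and 35.9 ± 0.784 TPM (0.58, adjusted p = 0.0838). MYC differed by 0.18 (adjusted p = 0.115) and the cell cycle gene CCND1 by 0.36 (adjusted p = 0.172). Of these 4, all but CCND1 had groups that did not overlap, which makes 3 of the 27 (9.17% of all entries), and 7 of the 27 had an unadjusted p under 0.05, all higher (13.9% of all entries). These genes also answer to other factors. FOSL2, KLF4 and CCND1, with SORL1, passed a limma adjusted p of 0.05 once empty vector replicate 2 was left out. Their adjusted p were 0.0266, 0.0285, 0.0413 and 0.0474, when 1.02% of all entries passed. Without that library their differences were larger, at 0.68, 0.60, 0.47 and 0.49. As for the members, this share is therefore not a like background, and no enrichment can be read from the count. FOSL2 also passed among protein-coding entries alone (limma adjusted p = 0.0468, beside 0.48% of them).

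Genes of the acute phase, the liver program that IL6 switches on, were nearly silent. Of 20, 16 stayed under 1 TPM in every sample, CRP, FGA, FGB, ORM1, ORM2 and REG3A were listed at 0, and C3 was the one tested (0.14, limma adjusted p = 0.839). A further list held 24 genes that act on IL6 transcription or on the stability of its mRNA, in either direction. Of these, 19 were tested and 5 had an unadjusted p under 0.05, all higher with SIGLEC12, beside 13.9% of all entries higher and 2.61% lower. They were the signaling genes IRAK1 (0.23, adjusted p = 0.149) and MYD88 (0.19, adjusted p = 0.221), the NF-kB subunits REL (0.30, adjusted p = 0.154) and NFKB1 (0.20, adjusted p = 0.222), and ATF3 (0.24, adjusted p = 0.230). IL1B was listed at 0 in every sample and IL1A reached at most 0.129 TPM, so these inducers were at or near 0 in the same libraries. ZFP36L1, whose product promotes mRNA decay, was the highest of the list at 207 and 213 TPM (0.04, adjusted p = 0.740).

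**Figure D4:**
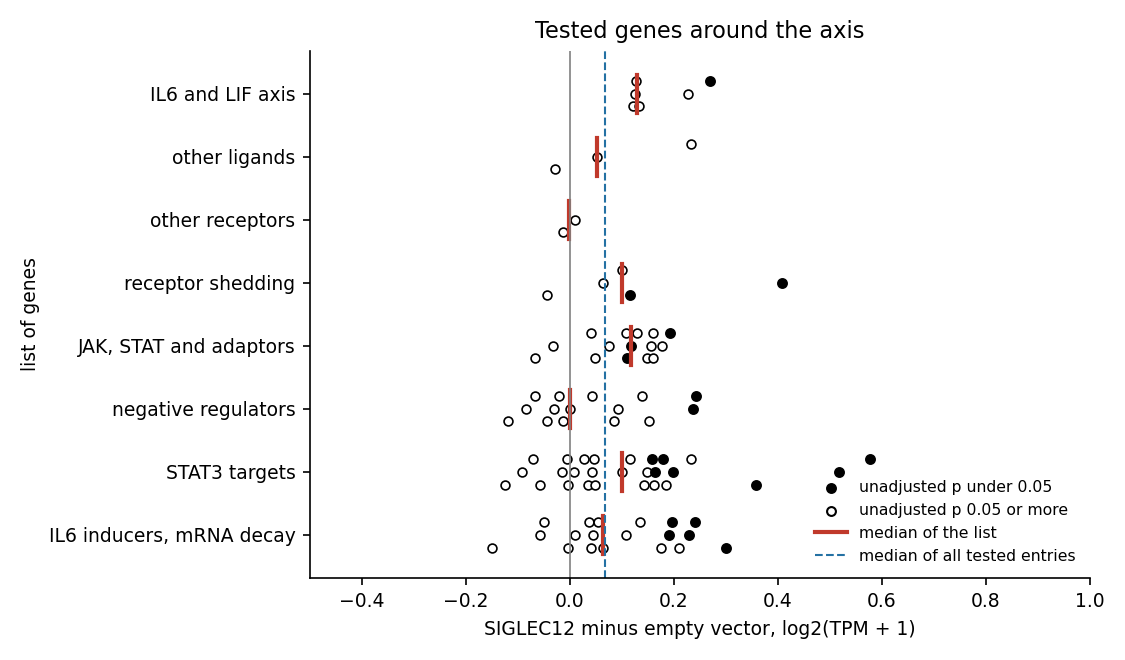
Difference between the groups (log2(TPM + 1), horizontal axis) for each tested gene of the axis and of 7 lists around it, the acute phase list with its 1 tested gene left out. Filled points had an unadjusted p under 0.05, red bars are list medians, and the dashed line is the median of all tested entries. Every filled point lies above 0, and the red bars lie between -0.00 and 0.13.

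Summed levels of marker genes also differed between the groups. The summed TPM of 5 general epithelial markers was 8257 to 9230 with the empty vector and 9840 to 10217 with SIGLEC12, and that of the 20 colon markers was 164 to 187 and 192 to 217. The summed TPM of the 22 trophoblast genes was 2597 to 2677 and 2513 to 2545. None of these 3 sums overlapped between the groups, but a sum follows its most abundant genes. The colon sum was mostly CDX1 and CDX2, the 2 tested colon markers, and the groups overlapped in both. Of 16 tested trophoblast genes, 7 had a higher and 9 a lower mean, with no overlap in 1 each way. Of the 5 general epithelial markers, 3 did not overlap, all higher, beside 9.17% of all entries. Fibroblast markers summed to 70.8 to 87.3 and 83.3 to 89.2 TPM, with THY1 listed at 0 and COL1A1 at 41.9 to 59.1 TPM. Immune markers summed to 3.92 to 5.20 and 3.96 to 6.68 TPM, with 9 of 12 under 1 TPM in every sample, and CD3D, MS4A1 and FCGR3A listed at 0, and endothelial markers to 5.39 to 11.8 and 6.49 to 7.25 TPM, mostly CDH5. The part of these shifts in the differences of IL6 and the other members was not tested, and a larger share of cells with a transcript and more transcript per cell cannot be told apart in bulk RNA.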

How the data were processed

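RNA-seq libraries from 4 empty vector and 4 SIGLEC12 samples were sequenced by the authors as 100 bp paired reads (the labels name a total RNA kit, the study's methods an mRNA kit). The authors quantified reads with kallisto (0.45.0 per the submitters' processing notes) against hg19 and deposited 1 table in log2(TPM + 1), which was used as deposited. Its columns sum to a fixed total in TPM, so depth is unknown and no interval from counts was given.

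Groups were compared with limma 3.58.1 (R 4.3.3; lmFit, eBayes with trend, Benjamini-Hochberg over 15590 entries with at least 1 TPM in 4 samples), and ratios by two-sided exact permutation tests (scipy 1.17.1). The fit was tested on simulated data. Gene positions came from GENCODE lifted to GRCh37 (86.9% of gene IDs matched) and promoters from RefSeq on GRCh38.p14. Members and lists were chosen with earlier results of these data known. All members were named, and of each list those with an adjusted p under 0.05, otherwise up to 4 of the lowest unadjusted p under 0.05 and up to 3 of the highest level, and those under 1 TPM. Some genes of the lists are counted but not reported here by name. All 5 low-p genes of the list on IL6 transcription and mRNA stability are given, since ATF3, the fifth, also ranks among the highest. Alternatives are given at the end. Figures were drawn with matplotlib 3.10.9.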

Additional observations from a re-analysis of the deposited data

Results flagged for a closer look

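The log2 ratio of LIF to LIFR in SIGLEC12 replicate 2 was -2.98, against -1.50, -1.61 and -1.56 in the other 3 samples of the group, a gap of 0.926 of the group's whole range. In that library LIF was at 0.350 TPM, the lowest of its group, and LIFR at 2.76 TPM, the highest. Among the 28 groups of values checked this was 1 deviating sample, and chance marks about 1 in 20 groups.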

How the results depend on the processing

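No member passed an adjusted p of 0.05 in limma under any of 20 alternatives (19 planned, 1 added after the data were seen), and the 118 alternative values of the 6 tested members kept their direction. IL6 ranged from 0.21 to 0.37 with adjusted p from 0.0698 to 0.346. With the trend on transcript length removed, which took the median of all entries to 0.00006, IL6R was 0.13 and LIFR 0.015. The count of members whose groups did not overlap ran from 0 to 4 with single libraries left out, and was 5 without both libraries numbered 2. The LIF to LIFR log2 ratio difference, -0.12 with all samples, ran from -0.38 to 0.28 with single libraries left out (turning without empty vector replicate 3 or SIGLEC12 replicate 2) and was 0.10 without both libraries numbered 2. The SOCS3 to STAT3 difference, 0.01 with all samples, ran from -0.039 to 0.047 (turning without empty vector replicate 1 or SIGLEC12 replicates 2 or 4) and was -0.012 without both.

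With the replicate number as a block (replicate block), 0 members passed and the adjusted p of IL6 was 0.239. The deviations of same-numbered samples had correlations of 0.04, 0.03, -0.07 and 0.06 for replicates 1 to 4. For replicates 2 and 4 this was above every pairing with another number (highest 0.01 and -0.01). For replicate 3 it was below every other pairing (lowest -0.02), and for replicate 1 it lay among them (-0.12 to 0.07). No label says that the numbers pair samples, and correlations this small do not decide it. The unknown depth limits LIF, IL11, CLCF1 and OSMR most.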
